A study of Mus musculus with 23 samples.

Results

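The Ms4a family genes described here were the 9 rows of the counts table with the symbols Ms4a4a, Ms4a4b, Ms4a4c, Ms4a6b, Ms4a6c, Ms4a6d, Ms4a7, Ms4a8a and Ms4a14. They were chosen by symbol alone and made up 9 of the 33280 genes in the table, in which 21 symbols began with Ms4a. All 9 passed the filter on low counts wherever border macrophages were part of the comparison, and 6 of the 9 passed it within microglia.

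The libraries were 23 bulk RNA-seq libraries of brain macrophages sorted from Ccr2creERT2/+ R26tdT/tdT mice, in which tamoxifen (2 mg per day, on the last gavage day and on 2 later days) gives a lasting tdTomato (tdT) mark to cells that express the monocyte receptor gene Ccr2 at that time. The mice, aged 10 ± 3 weeks at the first gavage, took the CSF-1 receptor inhibitor BLZ945 (200 mg/kg) or vehicle (CTL) for 7 days. All groups had a thromboembolic stroke 8 weeks later, made by thrombin in the middle cerebral artery, and cells were taken 1 day after it from a coronal brain slice without choroid plexus. Microglia (MG) were sorted as CD206-negative cells and subdural CNS-associated macrophages (sdCAMs), the macrophages of the leptomeninges and perivascular spaces, as CD206-positive cells divided by the tdT mark. Of MG there were 5 libraries with CTL and 5 with BLZ945, and of tdT- sdCAMs likewise 5 and 5, while tdT+ sdCAMs came from BLZ945 mice only, with 3 libraries. There was no tdT+ CTL group, and a tdT- cell is a cell without the mark, whatever its descent. The libraries of a group were named F1, F2, F3, M1 and M2, and tdT+ libraries existed for F2, F3 and M2. Each CTL library held 1 animal, whereas the BLZ945 libraries held 2 pooled animals, apart from F2 with 1, so that pooling and treatment cannot be told apart. MG and sdCAM libraries of the same name within a treatment came from the same animals.

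Total counts lay between 9433960 and 13276081 per library, and 3 counts, taken as the smallest level distinct from 0, were worth 0.230 to 0.331 CPM, the unit of level used here, in which a count is scaled to the same total for every library. The CPM values were scaled by TMM factors, which correct for differences in RNA composition. That floor and the counting intervals below cover counting error only, since amplified reads are not separate molecules. The sort held against markers: all 8 sdCAM markers were called higher and all 7 MG markers lower in tdT- CTL sdCAMs than in MG CTL. In bulk libraries, fewer cells with a transcript and less transcript per cell cannot be told apart.

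MS4A proteins cross the membrane several times and sit beside immune receptors, whose signals they modulate. The best known are CD20 on B cells, encoded by Ms4a1, and the beta chain of the high-affinity IgE receptor on mast cells, encoded by Ms4a2. Ms4a4a and Ms4a7 are macrophage genes, Ms4a4a protein is known to partner the beta-glucan receptor dectin-1, the Ms4a6 genes are expressed in myeloid cells, Ms4a4b is best known from T cells, and Ms4a8a has been described in alternatively activated macrophages. The human MS4A cluster is a risk locus for Alzheimer disease. The mouse genes lie side by side on chromosome 19 and include close copies.

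The closeness of these copies bears on every count. In the GENCODE M21 transcripts, the coding sequences of Ms4a4b and Ms4a4c were 91.7% identical, those of Ms4a6b and Ms4a6c 85.8%, those of Ms4a6b and Ms4a6d 81.2% and those of Ms4a6c and Ms4a6d 77.4%. The next closest pair was Ms4a4a and Ms4a4c with 67.1%. Of all stretches of 50 bases in a gene's transcripts, 7.73% of those of Ms4a4c occurred unchanged in another of the 9 genes, 6.08% of those of Ms4a6c, 5.66% of those of Ms4a6b, 2.85% of those of Ms4a4b and 2.69% of those of Ms4a6d. Ms4a4a, Ms4a7, Ms4a8a and Ms4a14 shared 0% with any other gene. Ms4a6c also overlapped an antisense gene, BE692007, over 55.4% of its stretches of 50 bases, and no row of the table bore that symbol. Reads from the overlap cannot be told apart without strand. How reads with several matches and on either strand were counted is not given in the sources used here, so values of the Ms4a6 genes, Ms4a4b and Ms4a4c are uncertain to the extent that reads could move between them.

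The upstream sequences of 5 of the genes are shown because these genes carried the sharpest differences between cell types (Ms4a4a, Ms4a7 and Ms4a14) or formed the closest pair of copies (Ms4a4b and Ms4a4c). RefSeq promoter windows on GRCm38.p6 were found for 8 of the 9 genes. Each stretch below runs 5′ to 3′ on the gene's strand over the 250 bases before the transcript start, cut where an exon of GENCODE M21 begins. Ms4a7 has a second RefSeq start further downstream, and the window of the outer start, listed first, is shown. That of the inner start, chr19:11334696-11334945, held 1 match of the AP-1 type. Capitals mark matches, on either strand, of 4 motifs named for macrophage regulators: GAGGAA of PU.1 type, TGCTGA of MAF type, TGANTCA of AP-1 type and an ETS-IRF composite.
Ms4a4a, chr19:11375238-11375487, plus strand: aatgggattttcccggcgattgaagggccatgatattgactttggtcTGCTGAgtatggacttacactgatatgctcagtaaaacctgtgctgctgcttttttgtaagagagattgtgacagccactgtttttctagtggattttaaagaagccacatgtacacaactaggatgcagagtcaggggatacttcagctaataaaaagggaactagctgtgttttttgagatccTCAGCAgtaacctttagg
Ms4a7, chr19:11336147-11336396, minus strand: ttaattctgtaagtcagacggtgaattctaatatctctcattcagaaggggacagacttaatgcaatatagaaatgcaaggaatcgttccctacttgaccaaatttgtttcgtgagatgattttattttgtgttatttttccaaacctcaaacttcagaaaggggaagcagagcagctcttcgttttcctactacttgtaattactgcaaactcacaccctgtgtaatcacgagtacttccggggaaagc
Ms4a14, chr19:11314455-11314704, minus strand: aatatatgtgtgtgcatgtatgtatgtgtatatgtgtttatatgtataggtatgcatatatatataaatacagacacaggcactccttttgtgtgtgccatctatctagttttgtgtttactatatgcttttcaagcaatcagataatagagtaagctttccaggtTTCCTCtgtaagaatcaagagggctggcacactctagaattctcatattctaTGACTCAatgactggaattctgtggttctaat
Ms4a4b, chr19:11443308-11443552, plus strand: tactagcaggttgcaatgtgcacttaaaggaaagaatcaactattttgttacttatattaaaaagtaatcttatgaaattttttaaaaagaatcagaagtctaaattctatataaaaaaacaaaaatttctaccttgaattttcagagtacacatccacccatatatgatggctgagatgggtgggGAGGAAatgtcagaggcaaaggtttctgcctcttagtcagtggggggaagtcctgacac
Ms4a4c, chr19:11407411-11407660, plus strand: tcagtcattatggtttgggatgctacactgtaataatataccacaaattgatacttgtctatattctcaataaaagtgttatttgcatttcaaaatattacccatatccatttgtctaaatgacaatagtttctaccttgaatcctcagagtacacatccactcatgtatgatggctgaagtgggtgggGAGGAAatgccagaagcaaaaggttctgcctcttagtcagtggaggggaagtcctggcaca

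Ms4a4b and Ms4a4c held the GAGGAA match at 64 and 61 bases before their starts and shared an unbroken run of 20 bases. Over the uncut windows of 250 bases, Ms4a6b and Ms4a6c, not shown, shared a run of 48 bases, whereas the runs shared by all other pairs were at most 9 bases long. Most of that run lies in the last 106 bases of the Ms4a6b window, which are exon in GENCODE M21. GAGGAA occurred in 23.3% of the 32851 RefSeq promoter windows of this length, TGCTGA in 16.1%, TGANTCA in 6.75% and the composite in 2.30%, so these matches are a description of the letters and do not mark bound sites.

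Ms4a4a, Ms4a7 and Ms4a14 were close to absent from MG and present in every sdCAM library. Against MG CTL, tdT- CTL sdCAMs had 529 times the level of Ms4a4a and 332 times that of Ms4a7. Ms4a14 had no count in any MG CTL library and 1223 in the 5 tdT- CTL libraries together. Each of these genes was called higher in tdT- CTL than in MG CTL, in tdT- BLZ945 than in MG BLZ945, and in tdT+ BLZ945 than in MG BLZ945 (edgeR, adjusted p under 0.05).

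Ms4a4a read 2.92, 2.18, 2.56, 2.89 and 1.76 CPM in MG CTL F1, F2, F3, M1 and M2, and 10.6, 1.75, 2.72, 0.442 and 5.09 CPM in the MG BLZ945 libraries in the same order. It read 1469, 1499, 1291, 1112 and 1164 CPM in tdT- CTL, and 1694, 2427, 2600, 1531 and 1602 CPM in tdT- BLZ945. In tdT+ BLZ945 F2, F3 and M2 it read 2033, 2684 and 1815 CPM. The lowest sdCAM library stood above the highest MG library by a wide margin, and MG BLZ945 F1 was the highest MG library. The log2 difference of tdT- CTL from MG CTL was 9.05 (SE 0.51, adjusted p = 1.04494e-11), that of tdT- BLZ945 from MG BLZ945 8.94 (SE 0.51, adjusted p = 9.92502e-12), and that of tdT+ BLZ945 from MG BLZ945 9.06 (SE 0.51, adjusted p = 1.4361e-12).

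Ms4a7 read 6.38, 3.92, 5.03, 4.07 and 2.14 CPM in MG CTL and 16.8, 3.84, 4.24, 6.01 and 3.99 CPM in MG BLZ945. It read 1312, 1132, 1719, 1462 and 1540 CPM in tdT- CTL, and 1559, 2412, 1425, 1481 and 1536 CPM in tdT- BLZ945. The tdT+ libraries F2, F3 and M2 read 1968, 1334 and 1127 CPM. The sdCAM groups overlapped one another and none overlapped MG, in which BLZ945 F1 was again the highest library. The log2 difference was 8.38 (SE 0.42) in tdT- CTL against MG CTL, 7.94 (SE 0.41) in tdT- BLZ945 against MG BLZ945 and 7.74 (SE 0.41) in tdT+ BLZ945 against MG BLZ945.

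Ms4a14, a large and little studied member, stood at a far lower level, with 240, 201, 165, 264 and 353 counts (20.2, 15.6, 16.5, 20.5 and 28.6 CPM) in tdT- CTL. The tdT- BLZ945 libraries read 29.3, 7.35, 17.6, 14.2 and 22.7 CPM and the tdT+ libraries 13.8, 16.7 and 10.9 CPM. In the 10 MG libraries it had 1 count in all, in MG BLZ945 F1. Set against 3 counts per MG CTL library, its level in tdT- CTL was at least 79.6-fold higher. Against the 1 count of MG BLZ945, the ratio for tdT- BLZ945 was 1030 with an exact counting interval from 184 to 40718.

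**Figure D1:**
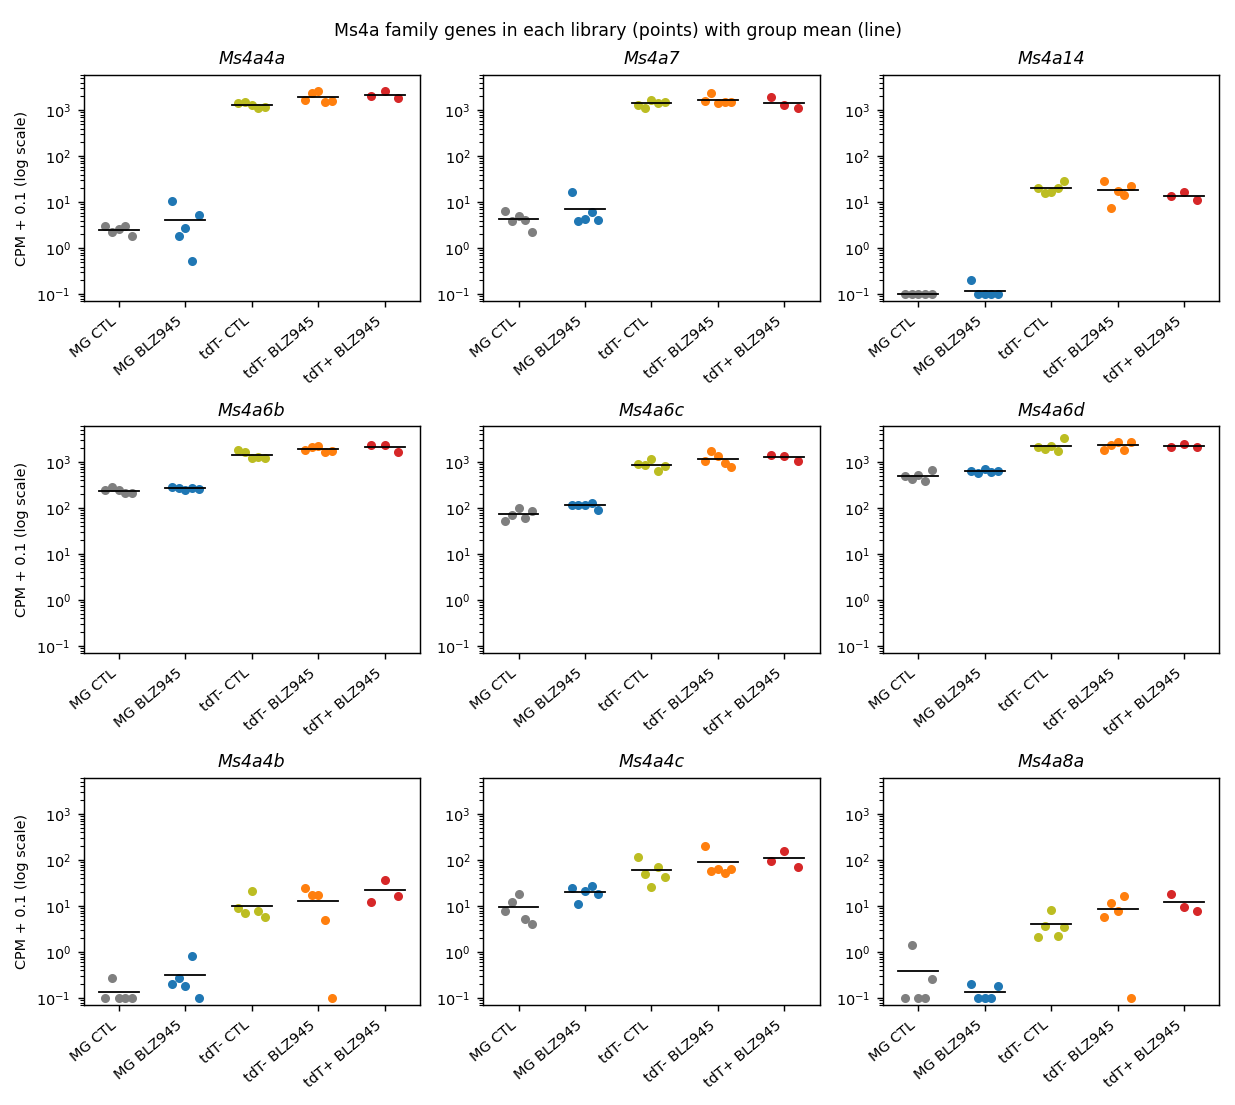
Each point is a library's CPM plus 0.1 on a log axis, with the group mean as a line, for the 9 genes (panels) in the 5 groups (x axis). Ms4a4a and Ms4a7 sit at 1112 CPM or more in every sdCAM library and at or below 16.8 CPM in MG, whereas the Ms4a6 genes are seen in both cell types.

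The MG signal of Ms4a4a and Ms4a7 was of the size seen for genes that define sdCAMs. Ms4a4a in MG CTL amounted to 0.188% of its level in tdT- CTL, and Ms4a7 to 0.301%. The 8 sdCAM markers, among them the CD206 gene Mrc1 used in the sort, amounted to between 0.0515% and 0.987% (median 0.177%). In BLZ945 mice the values were 0.209% for Ms4a4a and 0.414% for Ms4a7, and 0.0137% to 0.631% for the markers (median 0.114%). The summed level of the 8 markers was 20.7 to 48.2 CPM in MG CTL and 9.89 to 32.3 CPM in MG BLZ945, and none of the 8 was at 0 throughout either group. MG BLZ945 F1, the library highest in Ms4a4a and Ms4a7, had a marker sum of 19.7 CPM, the median of its group. The part of sdCAM RNA in the MG values was not tested.

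The Ms4a6 genes, myeloid members that form a set of close copies, were expressed in MG as well and stood 4.51 to 11.8 times higher in tdT- CTL sdCAMs. Ms4a6d was the leading Ms4a gene of MG, with 492, 427, 524, 399 and 675 CPM in MG CTL and 650, 590, 702, 620 and 654 CPM in MG BLZ945. In sdCAMs it read 2103, 1890, 2267, 1749 and 3359 CPM in tdT- CTL, 1886, 2317, 2777, 1872 and 2739 CPM in tdT- BLZ945, and 2189, 2542 and 2141 CPM in tdT+ BLZ945. No sdCAM library overlapped MG, and M2 was highest in both CTL populations. The log2 difference of tdT- CTL from MG CTL was 2.17 (SE 0.18, adjusted p = 3.81956e-09), the smallest of the 9 genes, and it was 1.86 (SE 0.18) in BLZ945 mice.

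Ms4a6b read 244, 284, 244, 219 and 217 CPM in MG CTL and 296, 281.5, 248.7, 273.2 and 261 CPM in MG BLZ945. It read 1802, 1641, 1240, 1309 and 1203 CPM in tdT- CTL, 1837, 2097, 2263, 1673 and 1795 CPM in tdT- BLZ945, and 2406, 2382 and 1693 CPM in tdT+ BLZ945. The cell types did not overlap, and the log2 difference was 2.57 (SE 0.13) in CTL and 2.84 (SE 0.13) in BLZ945 mice.

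Ms4a6c read 53.2, 71.6, 100, 60.4 and 88.5 CPM in MG CTL and 117, 119, 119, 127 and 91.0 CPM in MG BLZ945. It read 915, 879, 1157, 633 and 833 CPM in tdT- CTL, 1072, 1751, 1350, 940 and 787 CPM in tdT- BLZ945, and 1447, 1330 and 1043 CPM in tdT+ BLZ945. Its log2 difference between tdT- CTL and MG CTL, 3.56 (SE 0.22), was larger than those of Ms4a6b and Ms4a6d by more than their standard errors, although the difference between genes was not tested.

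The make-up of the Ms4a6 reads was compared between the cell types. Ms4a6d took 61.0% ± 5.26 (SD, n = 5) of the summed Ms4a6 CPM in MG CTL and 48.9% ± 7.83 in tdT- CTL. Ms4a6c took 9.07% ± 1.70 in MG CTL and 19.3% ± 3.55 in tdT- CTL, with ranges of 6.74% to 11.5% and 15.4% to 24.8% that did not overlap. Ms4a6b took 29.9% ± 5.28 and 31.8% ± 6.92. In BLZ945 mice the Ms4a6c share was 11.1% ± 1.30 in MG, 21.5% ± 4.84 in tdT- and 22.2% ± 1.51 (n = 3) in tdT+ cells. These shares rest on reads that the copies may exchange and, for Ms4a6c, on the antisense overlap.

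**Figure D2:**
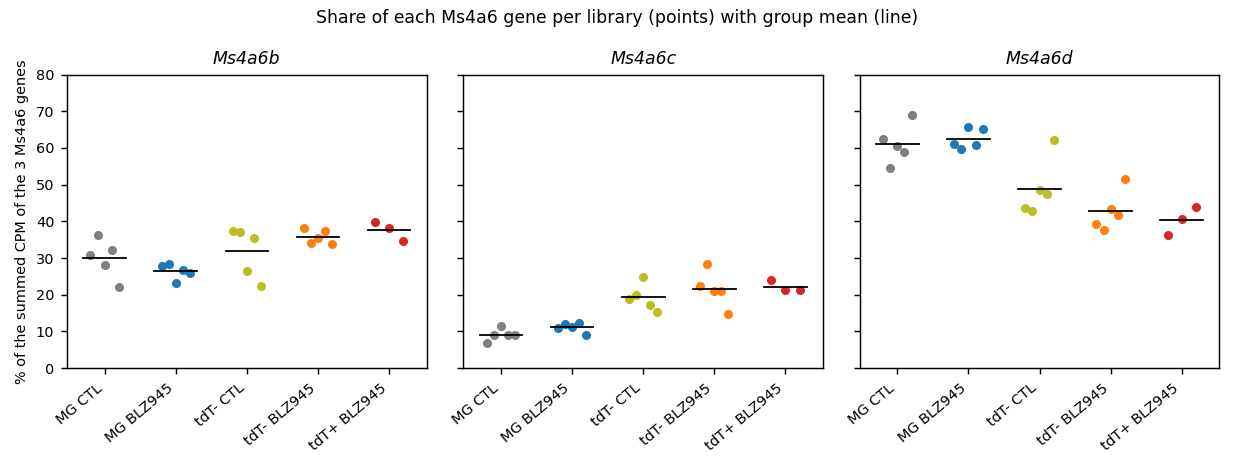
Each panel gives the share (%, y axis) of 1 Ms4a6 gene in the summed CPM of the 3 genes, by library (points) and group (x axis, mean as a line). The Ms4a6c share lies at 12.4% or less in every MG library and at 14.8% or more in every sdCAM library, and the Ms4a6d share is highest in CTL M2 of both cell types.

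Ms4a4b, Ms4a4c and Ms4a8a were the low and variable members. Ms4a4c, the copy of Ms4a4b, read 7.65, 12.4, 18.6, 5.09 and 3.98 CPM in MG CTL and 25.1, 11.02, 20.8, 27.7 and 18.4 CPM in MG BLZ945. It read 117, 50.2, 26.1, 72.1 and 43.6 CPM in tdT- CTL, 206, 57.3, 65.2, 53.1 and 65.3 CPM in tdT- BLZ945, and 94.4, 160 and 71.4 CPM in tdT+ BLZ945. Even so, sdCAMs stood above MG within each treatment, by a log2 difference of 2.69 (SE 0.48, adjusted p = 0.000168962) in CTL and 2.13 (SE 0.46, adjusted p = 0.00124579) in BLZ945 mice. In tdT- BLZ945, F1 held more than any of the other 4 libraries, which lay between 53.1 and 65.3 CPM. That library also had the highest sum of 8 classical monocyte markers, 245 CPM against 9.37 to 100 CPM in the other tdT- BLZ945 libraries. The order did not hold among these, since M1 had the next highest sum, 100 CPM, with 755 counts of Plac8, and the lowest Ms4a4c of the group. F1 had 1133 counts of Ccr2, 82 of Ly6c2 and 20 of the T cell gene Cd3e, where the other tdT- BLZ945 libraries had 0 to 270, 0 and 0. The sort was set to exclude Ly6C-positive cells, and the part of other cells in the value of F1 was not tested.

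Ms4a4b had 107, 89, 210, 97 and 71 counts (9.01, 6.90, 21.0, 7.54 and 5.76 CPM) in tdT- CTL, and 2 in the 5 MG CTL libraries together, both in F2. The ratio of these sums was 282.6, with an exact counting interval from 77.9 to 2339. In tdT- BLZ945 it had 232, 160, 195, 51 and 0 counts (24.9, 17.3, 17.6, 4.98 and 0 CPM), in tdT+ BLZ945 129, 369 and 168 (12.4, 36.5 and 16.8 CPM) and in MG BLZ945 1, 2, 1, 8 and 0. The tdT- BLZ945 library M2 thus overlapped MG. It was called higher in each of the 3 comparisons of sdCAMs with MG, with a log2 difference of 5.87 (SE 1.13, adjusted p = 0.000376475) for tdT- BLZ945. The summed level of 7 T and NK cell markers was 0.406 to 10.8 CPM in tdT- CTL, with Gzma at 0 in all 5 libraries, and 0 to 20.8 CPM in tdT- BLZ945. In tdT+ BLZ945 the sum was 0 to 4.35 CPM, with Cd3e and Gzma at 0. In tdT- BLZ945 F1, the library highest in Ms4a4b in its group, 6 of the 7 markers were detected and summed to 20.8 CPM, whereas in F3, with 195 counts of Ms4a4b, all 7 were at 0. In tdT- CTL F2 the sum of 10.8 CPM was above the level of Ms4a4b, 6.90 CPM, and 8.99 CPM of it was Il7r, the IL-7 receptor gene. Il7r was also counted in every MG library, with means of 26.7 CPM in CTL and 43.1 CPM in BLZ945. The part of T cell RNA in the Ms4a4b values was not tested.

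Ms4a8a had 24, 46, 82, 28 and 43 counts (2.02, 3.56, 8.22, 2.18 and 3.49 CPM) in tdT- CTL, 52, 109, 86, 169 and 0 (5.57, 11.8, 7.77, 16.5 and 0 CPM) in tdT- BLZ945, and 192, 95 and 78 (18.5, 9.40 and 7.79 CPM) in tdT+ BLZ945. In MG it had 15 counts in CTL F2, 2 in CTL M2, 1 each in BLZ945 F1 and M2, and 0 in the other 6 libraries. As with Ms4a4b, tdT- BLZ945 M2 was at 0. Its difference between tdT- CTL and MG CTL was the least certain of the 9, at 3.68 on the log2 scale (SE 1.20, adjusted p = 0.0265046). Without MG CTL F2, which held 15 of the 17 MG CTL counts, the log2 difference was 6.23 with an adjusted p of 0.00177332, whereas leaving out MG CTL F1, F3, M1 or M2, or tdT- CTL F3, ended the call (adjusted p between 0.0593949 and 0.0636236) with log2 differences of 3.22 to 3.52. In BLZ945 mice, where MG held 2 counts, the ratio was 241 with an exact counting interval from 66.4 to 1998.

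In all, 9 of 9 members were called higher in tdT- CTL than in MG CTL, where 15.3% of the 12697 genes tested were, and for all 9 the libraries of the groups did not overlap, which held for 15% of the genes tested. In BLZ945 mice, 9 of 9 were called higher in tdT- sdCAMs than in MG (18.3% of 12697 genes tested), with 7 not overlapping (10.4%). In tdT+ sdCAMs against MG BLZ945, 9 of 9 were called higher (14.6% of 13790 genes), all 9 without overlap (16.1%). The median log2 difference of the 9 was 3.68, 5.87 and 6.62 in these comparisons, against -0.01, -0.02 and -0.01 over all genes tested. The first median is the value of Ms4a8a, and without MG CTL F2 it was 6.23. With Ms4a14 at its bound it stayed at 3.68. The medians of 5.87 and 6.62 are values of Ms4a4b, which had 12 counts in MG BLZ945 in all and 0 in tdT- BLZ945 M2. All 3 medians thus rest on genes with few MG counts, and their order is not read as a larger difference in BLZ945 mice. The comparisons of BLZ945 mice share their MG libraries. When at least 10 counts were required in every library, only Ms4a4c, Ms4a6b, Ms4a6c, Ms4a6d and Ms4a7 remained to be tested, and all 5 were called higher in each comparison.

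**Figure D3:**
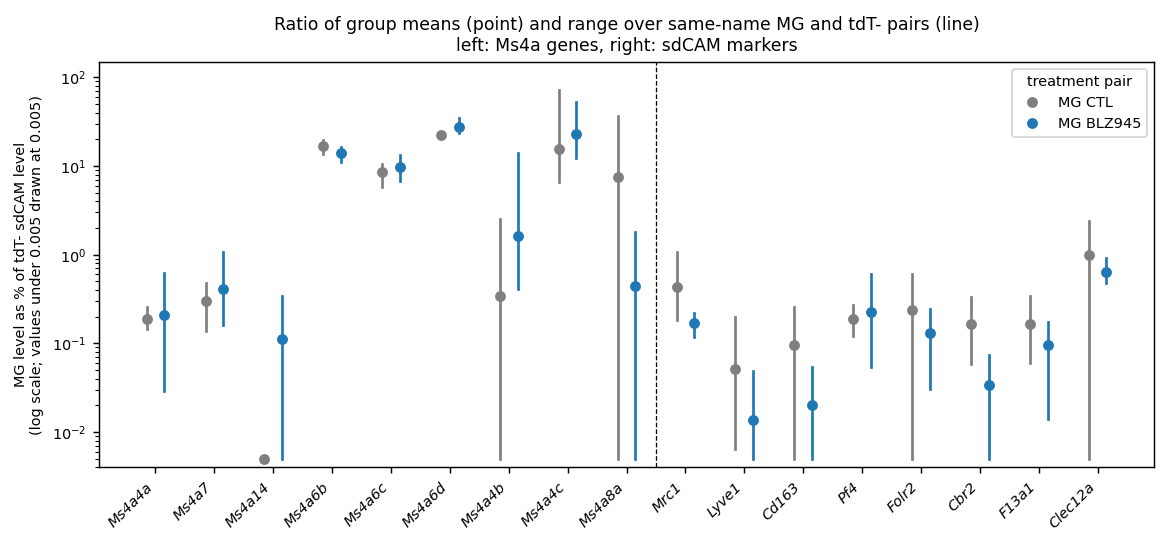
The MG level is given as a percentage of the tdT- sdCAM level (log axis) for the 9 Ms4a genes and, right of the dashed line, 8 sdCAM markers. Points are ratios of group means and lines the range over MG and tdT- libraries of the same name, in CTL (grey) and BLZ945 (blue). Ms4a4a (0.188% and 0.209%) and Ms4a7 (0.301% and 0.414%) lie among the markers, and Ms4a6b, Ms4a6c, Ms4a6d and Ms4a4c between 8.46% and 27.7%.

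The CPM of the 9 genes together came to 836 ± 112 (SD, n = 5) for MG CTL, 1062 ± 44.9 in MG BLZ945, 7432 ± 705 in tdT- CTL, 9214 ± 1514 in tdT- BLZ945 and 9534 ± 1402 (n = 3) in tdT+ BLZ945. The Ms4a6 genes were 98.0% of that sum in MG CTL and 61.7% in tdT- CTL, the rest in sdCAMs being mainly Ms4a4a and Ms4a7. Levels were ordered per kb of exon, with lengths from GENCODE M21, which may differ from the annotation of the counts. In MG CTL the order was Ms4a6d (290 CPM per kb), Ms4a6b (53.8), Ms4a6c (36.5), Ms4a4c (5.44), Ms4a4a (2.94) and Ms4a7 (0.967). Ms4a8a, Ms4a4b and Ms4a14 were each at 0.163 CPM per kb or less. In tdT- CTL it was Ms4a4a (1564 CPM per kb), Ms4a6d (1310), Ms4a6c (431), Ms4a7 (322), Ms4a6b (321), Ms4a4c (35.3), Ms4a14 (4.99), Ms4a8a (2.17) and Ms4a4b (1.14). There Ms4a4a overlapped Ms4a6d, Ms4a6c overlapped Ms4a7 and Ms4a7 overlapped Ms4a6b over the 5 libraries, so that these neighbours were not separated, and nor were the 3 lowest genes. In MG CTL, Ms4a6b overlapped Ms4a6c, Ms4a4c overlapped Ms4a4a, and Ms4a7 overlapped Ms4a8a, as did the genes below it in turn. In tdT- BLZ945 and tdT+ BLZ945, Ms4a4a (2358 and 2604 CPM per kb) no longer overlapped Ms4a6d (1336 and 1320).

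BLZ945 was then compared with CTL within each cell type. Since every library followed a stroke, a lasting change after repopulation and a different response to stroke cannot be told apart here. In MG, no member was called between BLZ945 and CTL by edgeR. Of the 6 members that passed the filter, 3 had an unadjusted p under 0.05 in the direction of BLZ945, which held for 7.01% of the 11264 genes tested, while 0.249% were called higher. All 6 had a positive log2 difference, as did 50% of genes tested, with a median of 0.63 against 0.00 over all genes.

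The clearest was Ms4a6c, with means of 74.8 ± 19.4 and 114 ± 13.6 CPM (SD, n = 5 each) in CTL and BLZ945, a log2 difference of 0.60 (SE 0.16, adjusted p = 0.105956). The groups overlapped only through MG BLZ945 M2, at 91.0 CPM, and MG CTL F3, at 100 CPM. Ms4a4c had means of 9.53 ± 5.998 and 20.6 ± 6.49 CPM, a log2 difference of 1.10 (SE 0.36, adjusted p = 0.202489). Ms4a6d had means of 503 ± 108 and 643 ± 41.8 CPM, a log2 difference of 0.34 (SE 0.13, adjusted p = 0.280148). These calls depended on the method. DESeq2 called Ms4a6c (adjusted p = 0.0185483), edgeR without the filter called Ms4a6c (0.0172475) and Ms4a4c (0.0356859), and edgeR without MG CTL M2 called Ms4a6d (0.0427801). These settings called more of all genes too, 238 with DESeq2, 193 without the filter and 98 without MG CTL M2, against 46. Over all alternatives the adjusted p of Ms4a6c ran from 0.0172475 to 0.600291. Ms4a4a (0.71, SE 0.59) and Ms4a7 (0.67, SE 0.44) rested on MG BLZ945 F1: without it, the log2 difference of Ms4a4a was 0.01.

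In tdT- sdCAMs, 0 of 9 members were called between BLZ945 and CTL, by edgeR or by DESeq2. Of the 13076 genes tested, edgeR called 0%, whereas DESeq2 called 56 genes. Here 3 members had an unadjusted p under 0.05, all higher in BLZ945, against 2.57% of genes tested. Ms4a4a, the dectin-1 partner, had means of 1307 ± 175 and 1971 ± 502 CPM (SD, n = 5 each) in CTL and BLZ945. The lowest BLZ945 library, M1 at 1531 CPM, stood above the highest CTL library, F2 at 1499 CPM, whereas 0.574% of genes tested had groups apart in this direction. The summed level of 6 dendritic cell markers was also apart in these libraries, at 222 to 782 CPM in CTL and 31.1 to 164 CPM in BLZ945, with Xcr1 at 0 in both groups and Itgax at 0 in CTL. Most of that sum was Cd209a, with means of 443 CPM in CTL and 86.7 CPM in BLZ945. Of these markers 3 were tested and none was called by edgeR. Cd209a had a log2 difference of -2.34 (SE 0.52, adjusted p = 0.304067) and Zbtb46 one of -0.42 (SE 0.37), whereas Flt3 went the other way at 1.88 (SE 1.29). The sort was set to exclude CD11c-positive cells, and the part of dendritic cell RNA in the Ms4a4a values was not tested. The log2 difference of Ms4a4a was 0.60 (SE 0.17, unadjusted p = 0.00282999 and adjusted p = 0.540598 by edgeR). Ms4a6b followed with 0.44 (SE 0.15, adjusted p = 0.688923) and Ms4a6c with 0.43 (SE 0.20, adjusted p = 0.92173), and the groups overlapped for both. The adjusted p of Ms4a4a lay between 0.0771694 and 0.999352 over the alternatives.

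Ms4a6d and Ms4a7 had log2 differences of 0.05 (95% interval -0.30 to 0.39) and 0.25 (-0.10 to 0.59). For Ms4a7, tdT- BLZ945 F2 stood at 2412 CPM and the rest of its group at 1425 to 1559 CPM. That of Ms4a14 was -0.13 (-0.88 to 0.61). For Ms4a4c the value of 0.54 (SE 0.43) rested on F1, and without it the log2 difference was -0.02. Ms4a4b likewise went from 0.38 to -0.01. The intervals of Ms4a4b and Ms4a8a, -1.26 to 2.01 and -0.60 to 2.82, were too wide to bound a change.

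Cells that carried the monocyte mark were then set against unmarked sdCAMs of the same treatment. No member was called between tdT+ and tdT- BLZ945 sdCAMs by edgeR or DESeq2, and 0 of 9 had an unadjusted p under 0.05, where 6.91% of the 13076 genes tested did and 0.206% were called by edgeR, in either direction. The log2 differences ran from -0.43 for Ms4a14 to 0.75 for Ms4a4b. In this unpaired fit, the intervals of the abundant members were -0.26 to 0.51 for Ms4a4a, -0.20 to 0.48 for Ms4a6b, -0.36 to 0.55 for Ms4a6c, -0.44 to 0.36 for Ms4a6d and -0.61 to 0.19 for Ms4a7. Differences within these intervals are not excluded by these libraries, of which 3 were tdT+. All 3 tdT+ libraries came from animals that also gave a tdT- library, and with the animal as a block still 0 of 9 were called, while the count over all genes went from 27 to 6. Within these 3 pairs, Ms4a6d and Ms4a7 were lower in the tdT+ library each time, and Ms4a4c and Ms4a8a higher, while the other members changed sign between pairs. For Ms4a8a the M2 pair was 0 against 78 counts. The share of all genes with the same sign in all 3 pairs was not determined, so no difference is read from these signs. The blocked log2 differences were -0.21 (SE 0.12) for Ms4a6d, -0.30 (SE 0.13) for Ms4a7, 0.70 (SE 0.30) for Ms4a4c and 1.84 (SE 1.83) for Ms4a8a, each with an adjusted p of 1 by edgeR.

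Against tdT- CTL sdCAMs, the tdT+ cells showed much the same members at an unadjusted p under 0.05, namely Ms4a4a, Ms4a6b and Ms4a6c, against 2.64% of genes tested in that direction. Ms4a4a was at 2177 ± 453 CPM (SD, n = 3), with no library below 1815 CPM and thus above all of tdT- CTL, as 3.11% of genes tested were. The log2 difference was 0.73 (SE 0.19, adjusted p = 0.208716). Ms4a6b was at 2160 ± 405 CPM, with 0.58 (SE 0.17, adjusted p = 0.309426), and Ms4a6c at 1274 ± 208 CPM, with 0.52 (SE 0.23, adjusted p = 0.624424). None of the 3 was called by edgeR, where 0.0688% of genes tested were called higher, but DESeq2 called Ms4a4a (adjusted p = 0.0163587) and Ms4a6b (adjusted p = 0.0393664) among 181 genes in all, against 37 by edgeR. This comparison shares its CTL libraries with that of tdT- BLZ945 cells and joins treatment with origin.

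**Figure D4:**
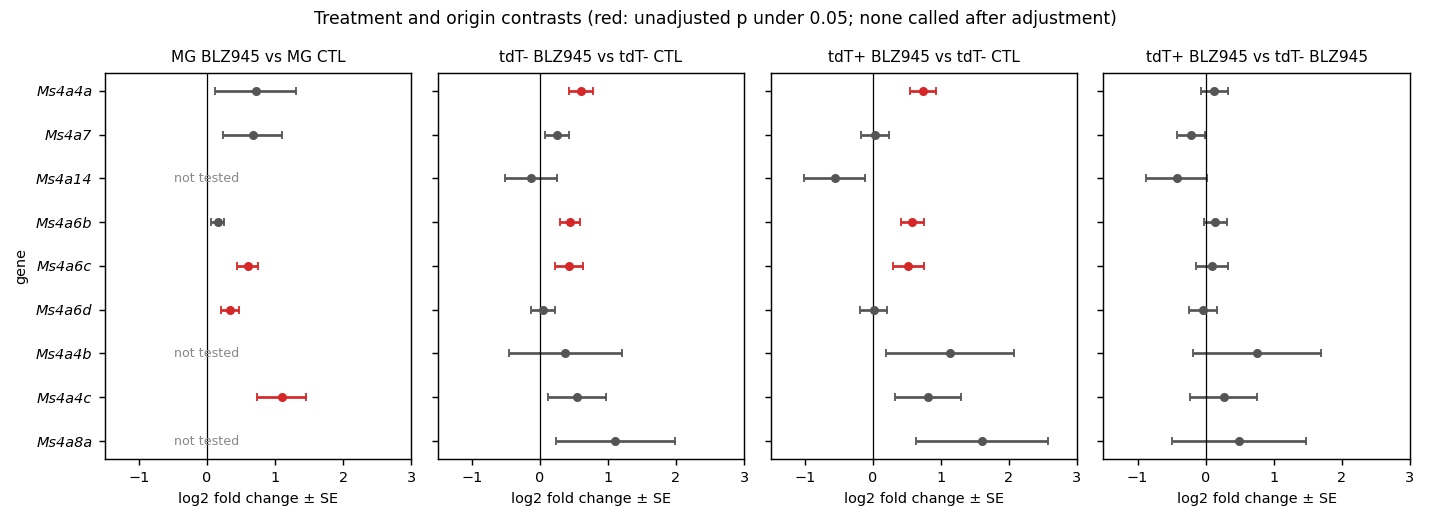
Log2 fold changes with standard errors (x axis) are given for the 9 genes (y axis) in 4 comparisons (panels), with values of unadjusted p under 0.05 in red. None was called after adjustment. Ms4a4a stands at 0.60 and 0.73 against tdT- CTL and at 0.13 between tdT+ and tdT- BLZ945 cells, and Ms4a14, Ms4a4b and Ms4a8a were not tested in MG.

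Whether the BLZ945 difference itself differed between tdT- sdCAMs and MG was tested as an interaction. No member was called by edgeR or DESeq2. Of all genes, edgeR called 0.0394% of the 12697 tested and DESeq2 called 94. An unadjusted p under 0.05 was found for 1 member (8.69% of genes tested in either direction), Ms4a8a at 3.80 (SE 1.77, adjusted p = 0.55231). That value rests on 17 counts in MG CTL, 15 of them in F2 alone, and 2 in MG BLZ945. The median over the 9 was -0.31 against -0.03 over all genes. A larger response in either cell type was thus not shown for any member.

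Spread among libraries of a group was also compared. After subtracting group means, log2 levels of Ms4a4a and Ms4a6b went together over the 13 sdCAM libraries (r = 0.79), as did those of Ms4a4a and Ms4a6c (r = 0.73), whereas over the 10 MG libraries r was 0.15 and -0.30. These points share depth and library preparation. Over all 23 libraries, which separate by cell type, the genes with the most similar log2 level were Clec4a1 (r = 0.993) and Pla2g7 (0.992) for Ms4a4a, Lyz2 (0.992) and Pla2g7 (0.992) for Ms4a7, Lyz2 (0.988) and Rgs18 (0.986) for Ms4a6b, and Ifitm2 (0.985) and Lyz2 (0.983) for Ms4a6c. For Ms4a6d they were Clec4d (0.984) and Ehd1 (0.977), for Ms4a14 Snx2 (0.987) and Sh3bgrl (0.985), and for Ms4a4c Ifi204 (0.924) and Spop (0.917), out of 8319 genes. Within groups, Ms4a4c went most closely with Ifi209 (r = 0.80) and Spop (0.77), Ms4a6d with Ccl9 (0.84) and Sod2 (0.82), Ms4a4a with Smarce1 (0.72) and Clec4a1 (0.70), Ms4a6b with Zfp597 (0.84) and Edem2 (0.80), Ms4a6c with Pet100 (0.79) and Snrpe (0.78), Ms4a7 with Ptgr2 (0.76) and Mgmt (0.63), and Ms4a14 with Dcun1d1 (0.88) and Tmco3 (0.87).

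Other genes tied to the family were listed by role. Of 9 genes for receptors and signalling partners linked to MS4A proteins, 7 were tested. In tdT- CTL sdCAMs against MG CTL, 2 were called higher, namely Clec7a (dectin-1, log2 difference 3.29, SE 0.48) and Fcer1g (the Fc receptor gamma chain, 0.74, SE 0.20), and 3 lower, namely Trem2 (a lipid-sensing receptor of MG, -1.53, SE 0.14), Plcg2 (-1.35, SE 0.16) and the kinase gene Lyn (-0.79, SE 0.13). Tyrobp and Syk were not called. Clec7a thus had means of 116 ± 20.4 and 11.7 ± 8.52 CPM (SD, n = 5 each) in tdT- CTL and MG CTL, while Trem2 stood at 581 ± 63.3 and 1667 ± 197 CPM. Lower calls made up 10.3% of all genes tested there, 14.1% in BLZ945 tdT- cells and 10.6% in tdT+ cells. In BLZ945 mice the same 2 were called higher and the same 3 lower. In tdT+ sdCAMs against MG BLZ945, 1 was called higher (Fcer1g) and 3 lower, and Clec7a missed the threshold (1.17, SE 0.49, adjusted p = 0.0811512). None of the 7 was called by edgeR between BLZ945 and CTL in either cell type or between tdT+ and tdT- sdCAMs, although Clec7a, Syk and Plcg2 had an unadjusted p under 0.05 in MG (13.2% of genes tested in either direction), Clec7a at 1.77 (SE 0.47, adjusted p = 0.105956).

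Of 16 further family members, 14 were in the table and few were counted. Tmem176a and Tmem176b, related genes with a like membrane-spanning layout, were called higher in sdCAMs than in MG, at 0.88 (SE 0.20) and 0.93 (SE 0.18) in CTL, 1.62 (SE 0.20) and 1.47 (SE 0.18) in BLZ945 tdT- cells, and 1.87 (SE 0.23) and 1.49 (SE 0.20) in tdT+ cells. In MG, where Tmem176a had a mean of 263.3 CPM in CTL (SD 61.5, n = 5) and of 173 CPM in BLZ945 (SD 8.79, n = 5) without overlap, as 1.31% of genes tested did in this direction, the log2 difference was -0.62 (SE 0.13, adjusted p = 0.0592607), opposite in sign to the Ms4a6 genes. The lineage members had few counts: Ms4a1 had at most 23 counts, Ms4a2 at most 9 and Ms4a3 at most 5 in any library. Even so, edgeR called Ms4a1 higher in tdT+ BLZ945 than in MG BLZ945 (adjusted p = 0.0371406), on 44 counts in all against 0. All 3 further members tested in that comparison were thus called higher, where 14.6% of genes tested were. Ms4a1 was not called between tdT+ BLZ945 and either tdT- group.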

How the data were processed

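The deposited table holds whole-number read counts per gene symbol. Per the labels, the authors made these counts from SMART-Seq libraries with bcl2fastq 2.20, STAR 2.7.11a and featureCounts 2.0.6, and DESeq2 1.46.0 is also named. Which of the mouse builds named served for the table was not clear, so positions are given only for RefSeq promoter windows. The handling of reads with several matches is not given in the sources used here.

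The main test was the quasi-likelihood test of edgeR 4.0.16 (R 4.3.3) on the counts, with TMM factors and filterByExpr. Benjamini-Hochberg adjustment covered every gene tested, and genes were called at an adjusted p under 0.05. Standard errors were derived from the F statistic. MG were compared in a model of 10 libraries, sdCAM groups in 13, tdT- sdCAMs with MG in 20, and tdT+ sdCAMs with MG in all 23. DESeq2 1.42.0, RLE factors, other filters, a model of all libraries, a replicate block and leaving out each library were alternatives. P-values measure the spread between libraries of separate animals or pools. On simulated data with 200 genes changed by a log2 value of 2, the test recovered 99.0% in MG (11264 genes), 68.0% for BLZ945 against CTL in tdT- sdCAMs (13076), 61.5% for tdT+ against tdT- (13076) and 81.5% for tdT- CTL against MG CTL (12697).

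Libraries of the same name within a treatment share their animals by the labels. Their deviations from group means correlated at 0.113 for MG and tdT- CTL, 0.0869 for MG and tdT- BLZ945, 0.0713 for tdT- and tdT+ and 0.130 for MG and tdT+. The lowest chi-square per gene between libraries of a group was 15.7, so all were kept as separate libraries. One animal number stands in the names of the BLZ945 libraries F2 and M1. Xist was at 0 CPM in both M1 libraries. The genes and lists were chosen with earlier results of these data known. All 9 genes, 16 further family members and 9 linked genes were named where tested, and for each member above a mean of 10 CPM the 2 genes most alike by Pearson r of log2(CPM + 1).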

Additional observations from a re-analysis of the deposited data

Results flagged for a closer look

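In 35 groups of values with 4 to 10 libraries, 10 had a library set apart from its group by Dixon's criterion at 95%, which chance alone meets in about 1 in 20 groups. That rate does not apply where 4 of 5 libraries are at 0, since any count then sets the fifth apart, as for Ms4a4b in MG CTL and Ms4a14 in MG BLZ945. Several of the values rest on a few counts. Ms4a4b stood apart in MG CTL F2 (0.174 CPM), MG BLZ945 M1 (0.707 CPM) and tdT- CTL F3 (21.0 CPM), Ms4a8a in MG CTL F2 (1.31 CPM) and tdT- CTL F3 (8.22 CPM), and Ms4a14 in MG BLZ945 F1 (0.101 CPM, a single count). Ms4a7 stood apart in MG BLZ945 F1 (16.8 CPM) and tdT- BLZ945 F2 (2412 CPM), Ms4a6c in MG BLZ945 M2 as the lowest value (91.0 CPM) and Ms4a4c in tdT- BLZ945 F1 (206 CPM). The tdT- CTL library F3 was highest in both Ms4a4b and Ms4a8a, and also in Ms4a6c (1157 CPM) and Ms4a7 (1719 CPM). The tdT- BLZ945 library F1 was also highest in the monocyte marker sum, but M1, with the next highest sum, was lowest in Ms4a4c, and the part of monocyte RNA in the value of F1 was not tested.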

How the results depend on the processing

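Of 393 values for single members in the comparisons of sdCAMs with MG under the alternatives, 388 kept their direction and their call and 5 lost the call, all of Ms4a8a in tdT- CTL against MG CTL (log2 differences of 3.22 to 3.52 with single libraries left out, against 3.68, and adjusted p 0.0593949 to 0.0636236). Requiring 10 counts in every library left 5 members called in each of these 3 comparisons. In the other comparisons, 682 of 715 values kept side and direction, 6 gained a call and 27 turned direction without a call. Members called in MG between BLZ945 and CTL numbered 2 without the filter, 1 with DESeq2 and 0 to 1 with single libraries left out. DESeq2 called 2 members in tdT+ BLZ945 against tdT- CTL. Apart from the construction of the filters, the cause was not tested.

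Counts over all genes moved more. For BLZ945 against CTL in MG (46 called), they were 193 without the filter, 12 in the model of all 23 libraries, 238 with DESeq2 and 21 to 98 with single libraries left out. In tdT- sdCAMs (0 called), they were 29 in the model of all libraries and 56 with DESeq2. For tdT+ against tdT- BLZ945 (27 called), they were 82 in the model of all libraries, 133 with DESeq2 and 16 to 28 with single libraries left out. For tdT+ BLZ945 against tdT- CTL (37 called), they were 61 without the filter, 121 in the model of all libraries, 181 with DESeq2 and 21 to 47 with single libraries left out. For the interaction (5 called), they were 9 without the filter, 0 with the stricter filter, 1 in the model of all libraries, 94 with DESeq2 and 0 to 37 with single libraries left out, the highest without tdT- BLZ945 F1.

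The replicate block, which pairs libraries of the same animals within a treatment but joins only names across treatments, called 89 genes in MG, 6 for tdT+ against tdT- BLZ945 and 1 for the interaction, and changed no other count of calls by over 1.5 times. Under the block the log2 difference of Ms4a4a turned to -0.027 for tdT+ against tdT- BLZ945 and to 0.15 for the interaction, and for tdT+ BLZ945 against tdT- CTL those of Ms4a6d and Ms4a7 turned to -0.12 and -0.063.

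With single libraries left out, uncalled log2 differences that turned sign had these ranges. For BLZ945 against CTL in tdT- sdCAMs they ran from -0.0067 to 0.83 for Ms4a4b, -0.025 to 0.91 for Ms4a4c, -0.033 to 0.23 for Ms4a6d and -0.37 to 0.057 for Ms4a14. For tdT+ against tdT- BLZ945 they ran from -0.058 to 0.25 for Ms4a4a, -0.14 to 0.84 for Ms4a4c, -0.015 to 0.29 for Ms4a6c and -0.12 to 0.041 for Ms4a6d. For tdT+ BLZ945 against tdT- CTL they ran from -0.077 to 0.19 for Ms4a6d and -0.20 to 0.20 for Ms4a7, and for the interaction from -0.40 to 0.57 for Ms4a4a and -0.62 to 0.17 for Ms4a7.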

Other observations

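Among family members outside the 9, Ms4a10 had 173 counts (16.9 CPM) and Ms4a18 55 counts (5.37 CPM) in tdT- BLZ945 M1, and each had at most 2 counts in any other library. Ms4a4d had 18 counts in tdT+ BLZ945 M2 and 9 in F3. The B cell gene Ms4a1 had 21 and 23 counts in tdT+ BLZ945 F2 and F3, 22 in MG CTL M2, 15, 6 and 4 in tdT- CTL M2, F2 and M1 and none elsewhere. Of other B cell genes, Cd79b was called higher by edgeR in tdT+ BLZ945 than in MG BLZ945 (log2 difference 2.05, SE 0.58, adjusted p = 0.0114006). However, MG BLZ945 was itself called lower in Cd79b than MG CTL (-2.33, SE 0.25, adjusted p = 0.000477055 by edgeR). For tdT+ cells, Cd79b was not called against tdT- CTL (0.12, SE 0.74) or against tdT- BLZ945 (2.84, SE 0.75). Ighm was not called between tdT+ BLZ945 and MG BLZ945 (0.29, SE 0.20). Pax5 had 12 counts in 1 tdT+ library and none in the rest of that group, and Cd79a was at 0 in all tdT+ libraries. The part of B cell RNA in these values was not tested.

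The tdT- BLZ945 library M2 had no count of Ms4a4b or Ms4a8a and none of Ccr2. It also had the lowest total counts (9433960) and the fewest detected genes (12733) of the 23 libraries, so that low genes could be missed in it. Ms4a4a (1602 CPM), Ms4a6d (2739 CPM) and Ms4a7 (1536 CPM) lay within the range of the rest of its group, whereas Ms4a6c (787 CPM) was the lowest of the group. The ratio of Ms4a4a to Ms4a7 counts was 0.942 ± 0.265 (SD, n = 5) in tdT- CTL, 1.20 ± 0.351 in tdT- BLZ945 and 1.55 ± 0.492 (n = 3) in tdT+ BLZ945, with overlapping ranges.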
